A study of Bubalus bubalis with 8 samples.

Results

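Translation initiation factors, listed on the array under gene names of EIF and a number, were followed in heat stressed mammary epithelial cells (MECs) of the buffalo, Bubalus bubalis. The array carried 139 probes for 55 such names. After leaving out 6 probes in a region that was dark on the control array and 25 probes that were not well above background on any array, 47 genes with 108 probes remained, of 12299 gene names and 43653 probes that were measured in all. The 8 genes without a detected probe were EIF1AY, EIF2AK4, EIF2C1, EIF2S3Y, EIF4E1B, EIF4E3, EIF4ENIF1 and EIF5A2. Of the 47 genes, 40 were well above background on all 8 arrays, and no EIF spot was saturated.

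The cells were primary MECs of an adult buffalo at passage 10, seeded on collagen. Control cells (CTR) stayed at 37 °C. The others were held for 1 h at 42 °C, returned to 37 °C with 5% CO2, and harvested 30 min or 2, 4, 8, 12, 16 or 24 h post heat stress. Each condition was hybridised to 1 array of a bovine 1-colour (Cy3) design, so no condition had a replicate, no test between conditions was possible, and all 7 comparisons shared the same CTR array. Per the methods all cells came from the same buffalo, so differences between animals were not sampled.

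Initiation begins when eIF2, loaded with GTP and the initiator tRNA, joins eIF1, eIF1A, eIF3 and eIF5 on the small ribosomal subunit, and the eIF4 factors bring the mRNA to it by its cap. Cells reduce initiation under heat and other stress mainly at 2 steps, by phosphorylation of the alpha subunit of eIF2, which blocks its exchange factor eIF2B, and by the binding proteins that hold the cap-binding protein eIF4E. Both steps act on proteins, and the arrays measured mRNA.

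Levels are given as log2 intensity relative to the 75th percentile of the array, and a change is the level at a time point minus that of CTR. A gene was called higher or lower where this difference was at least 2-fold. From spots of the same probe, a change had an error (SD) of 0.31 for 30 min, 0.36 for 2 h and 0.37 for 4 h and 24 h, with 0.29, 0.33 and 0.53 for 8, 12 and 16 h, on the log2 scale, which covers the array surface only. For 30 min the SD of the CTR spots was used in place of its own, which rested on 2 probes only. CTR, 8 h, 12 h and 24 h were on slide 1, and 30 min, 2 h, 4 h and 16 h on slide 2, so that for the latter 4 an effect of the slide and that of the heat cannot be told apart. Per the methods control plates were harvested at the same time points, but the CTR array is labelled without a time. At every time point, on both slides, time in culture and heat therefore cannot be told apart.

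The arrays of both slides also differed in markers of cell types. Of 7 epithelial markers, between 6 and 7 were detected per array, with a summed level from 7.58 to 9.36, but single markers differed between the slides. KRT18, whose protein the authors stained as an epithelial marker, was detected at 2 h and 16 h only. KRT8 had levels from 6.38 to 6.99 on slide 1 and from 3.28 to 4.69 on slide 2, while KRT14 was at 5.27 to 5.56 on the slide 1 arrays other than CTR and at 7.52 to 9.03 on slide 2. KRT14 and KRT19, like the leukocyte marker CD14, were read in the dark region of the CTR array. The 4 milk protein genes had a summed level from 2.13 to 2.49 on slide 1 and from 4.95 at 2 h to 9.03 at 16 h on slide 2, and CSN1S1, CSN3 and LALBA were not detected on slide 1. For 5 leukocyte markers the summed level was between 2.53 and 3.00 on slide 1 and between 4.02 and 6.57 on slide 2, highest at 30 min, and CD3E was not detected on slide 1. CD79A, also among the 5, went the other way, at 0.42 to 1.01 on slide 1 and -1.15 to -0.34 on slide 2. At 30 min and 16 h CD79A was not detected, and at 4 h neither CD3E nor CD68 was. Between 1 and 6 of the 7 fibroblast markers were detected (summed level from 5.15 to 6.31, PDGFRB on no array), and between 0 and 2 of the 3 endothelial markers (from -1.78 to 1.95, CDH5 on no array). Their part in the changes below was not tested, and fewer cells of a type and less RNA per cell cannot be told apart. At 30 min the scanner intensities departed from the deposited log2 values, and the latter were used.

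Most EIF genes were read by several probes of 60 bases, and where these differed the sequences show what was hybridised. Below are, 5′ to 3′, probes that lie away from the probe used for the gene, with positions on the bovine build Btau_3.1 to which the array was designed, in lower case throughout, as no base is singled out. They are shown because they read farther from CTR than the probe used (EIF3J and EIF3H at 2 h, both of EIF4G2 at 30 min) or nearer to it (EIF4A2 at 16 h). Of these, the probe of EIF3J spans 400 bases of the genome, that of EIF3H 3422 and the first of EIF4G2 379, more than their 60 bases. Exons and untranslated regions of that build were not annotated here.
EIF3J, chr10:105983207-105983606, plus strand: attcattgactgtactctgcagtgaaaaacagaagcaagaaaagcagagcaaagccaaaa
EIF3H, chr14:45045767-45049188, plus strand: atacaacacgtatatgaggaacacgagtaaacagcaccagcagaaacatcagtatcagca
EIF4G2, chr15:40893299-40893677, plus strand: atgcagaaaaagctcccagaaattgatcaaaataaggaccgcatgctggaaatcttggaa
EIF4G2, chr15:40888479-40888538, plus strand: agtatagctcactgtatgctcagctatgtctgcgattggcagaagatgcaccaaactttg
EIF4A2, chr1:82289646-82289705, minus strand: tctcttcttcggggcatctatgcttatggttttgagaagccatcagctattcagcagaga

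Few initiation factor genes moved by 2-fold at any time point, and most of those that did were lower on slide 2. At 30 min, 2 of 45 genes with a change were lower (EIF2S3 and EIF3J) and 0 higher, where of all genes with a detected probe 13% were lower and 11.8% higher. By 2 h the same 2 of 47 were lower and 0 higher (all genes 16.4% and 8.59%), and at 4 h 2 of 46 were lower (EIF2S1 and EIF2S3) and 0 higher (all genes 11.4% and 6.83%). No EIF gene was called at 8 h (all genes 2.67% lower, 2.5% higher), at 12 h (6.04% and 0.833%) or at 24 h (3.61% and 0.82%). The 16 h array had 4 of 44 lower (EIF2B1, EIF2B3, EIF3A and EIF3J) and 2 higher (EIF4A2 and EIF4EBP1), beside 11.5% and 12.5% of all genes, and it also had the largest error.

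Over the 7 time points, 6 of the 47 genes were lower at 1 or more (12.8%, all genes 23.1%) and 2 were higher (4.26%, all genes 16.8%). At 2 or more time points, 2 genes were lower, EIF2S3 and EIF3J (4.26%, all genes 13.3%), and 0 were higher (all genes 9.68%). Among the 40 EIF genes that were bright, meaning well above background on the 7 arrays other than 30 min, 4 were lower at 1 or more time points (10%, bright genes 30.8%) and 2 higher (5%, bright genes 17.4%), and 2 were lower (5%, bright genes 16.8%) and 0 higher (bright genes 9.36%) at 2 or more. The median change of the EIF genes lay between -0.23 at 16 h and 0.04 at 8 h, and that of all genes between -0.19 at 12 h and 0.

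These values rest on the scaling of the arrays. With the 75th percentile, the median change of all bright probes was -0.32, -0.34, -0.08 and -0.06 on the slide 2 arrays (30 min, 2, 4 and 16 h) and -0.14, -0.28 and -0.15 on the slide 1 arrays (8, 12 and 24 h). Scaled to the median of each array it was 0.60, 0.36 and 1.00 at the first 3 time points, and then no EIF gene was 2-fold lower at those times (all genes 3.72%, 6.81% and 1.98%) and 18 of 45, 9 of 47 and 21 of 46 were 2-fold higher (all genes 33.8%, 20.8% and 42%). The number of EIF genes above CTR at those times went from 20, 21 and 19 to 43, 37 and 43, so the directions given below for these arrays hold for the 75th percentile. For the genes called at 2 or more time points, changes relative to the median of all bright probes are therefore given as well.

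**Figure D1:**
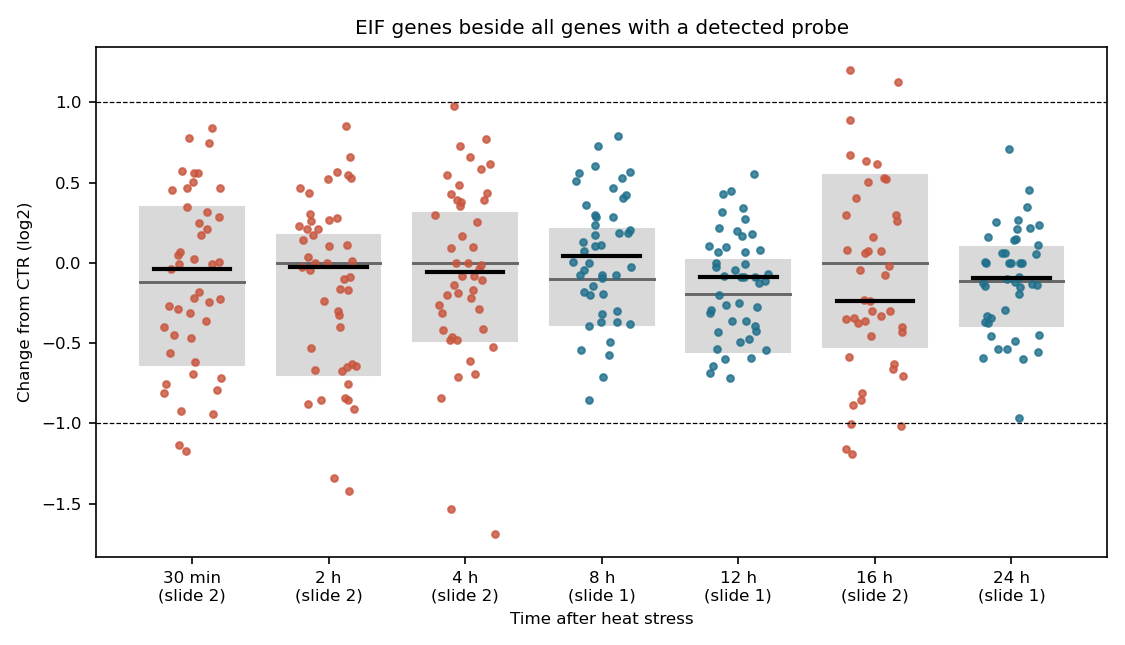
Change from CTR (log2, vertical axis) of each EIF gene at 7 times post heat stress, in blue for arrays on slide 1 and red for slide 2, with bounds included; the black line is the EIF median, the grey box and line the interquartile range and median of all genes with a detected probe, and the dashed lines 2-fold. The EIF medians lie between -0.23 and 0.04, and no point lies past 2-fold at 8 h, 12 h or 24 h.

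The genes of eIF1 and eIF1A, which hold the ribosome open for scanning, had small changes. None of the 4 genes in this group was called at any time point, and their median change ran from -0.10 at 24 h to 0.32 at 4 h. EIF1, the factor that guards the choice of start codon (probe at chr19:43267881-43267940, plus strand), had a level of 6.61 in CTR and 6.90, 6.72 and 6.51 at 8, 12 and 24 h on slide 1, and 7.12, 6.88, 7.10 and 7.02 at 30 min and 2, 4 and 16 h on slide 2. Its changes, from -0.10 to 0.50, were highest at 30 min and 4 h, and its probe lay near the dark region, where bright neighbours read -0.43 on the CTR array.

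Of the other probes of EIF1, the probe at chr19:43268470-43268529 differed by 1.53 at 30 min and 1.34 at 2 h. Thereafter it ranged from -0.81 at 12 h to 0.40 at 16 h, with -0.54 at 24 h. The probe at chr19:43267770-43267827 stayed between -0.57 and 0.12. All 3 lay above CTR at 30 min, 2 h, 4 h and 16 h, by amounts that differed more than the spot error at 30 min. EIF1AX, the X-linked gene of eIF1A, had changes from -0.30 to 0.51. Its other 2 probes read lower, with -1.15 at 2 h on one and -1.66 at 16 h on the other. EIF1AD, which shares a domain with eIF1A, reached 0.62 at 16 h.

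The eIF2 group held the lowest changes of the EIF genes, those of EIF2S3 and, as a bound, EIF2S1. EIF2S3 encodes the gamma subunit of eIF2, which binds GTP and the initiator tRNA, and was read by a probe at chrX:73124752-73124811 on the minus strand. Its level was 4.77 in CTR and 4.89, 4.34 and 4.31 at 8, 12 and 24 h on slide 1, and 3.59, 3.35, 3.23 and 3.95 at 30 min and 2, 4 and 16 h on slide 2. All 4 arrays of slide 2 lay below all 4 of slide 1.

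EIF2S3 was lower than CTR by 2.25-fold at 30 min, 2.68-fold at 2 h and 2.89-fold at 4 h. The change at 16 h was -0.81, and it lay between -0.45 and 0.13 on slide 1. Against the median change of all bright probes the values at 30 min, 2 h and 4 h were -0.85, -1.08 and -1.45. With each array scaled to its median they were -0.22, -0.72 and -0.45, so the sign held and the 2-fold call did not. With the scanner intensities the 30 min change was 1.27, the opposite sign.

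EIF2S1, the alpha subunit whose phosphorylation slows initiation, had a level of -0.05 in CTR, with 0.51 and 0.12 at 8 and 12 h on slide 1 and 0.73 and 0.52 at 30 min and 2 h on slide 2. On the 4, 16 and 24 h arrays it was not well above background (-2.03, -2.41 and -0.35). At 4 h this gave a bound of at least 3.22-fold lower than CTR, and the levels at 30 min and 2 h were above CTR by 0.78 and 0.57. The CTR level was itself close to the limit of that array, -0.20.

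EIF2S2, the beta subunit, had changes from -0.86 at 16 h to -0.08 at 8 h, none of them 2-fold. Its other probe differed by 1.54, 1.45 and 1.13 at 8 h, 12 h and 24 h, lay above CTR by 0.55, 0.45 and 0.65 at 30 min, 2 and 4 h where the used probe lay below, and sat next to the dark region, where the CTR array read -0.78 locally. EIF2A, a separate factor that can deliver the initiator tRNA, was below CTR by both probes at all 7 time points. Its used probe had changes from -0.93 at 30 min to -0.13 at 12 h, and the other probe from -1.64 at 2 h to -0.32 at 8 h. EIF2D, a factor linked to reinitiation, lay between 0.06 and 0.55 above CTR.

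The 5 subunits of the exchange factor eIF2B moved apart. EIF2B1, the regulatory alpha subunit that senses phosphorylated eIF2 (chr17:54724551-54724610, plus strand), had a level of 1.19 in CTR and 0.34, 0.48 and -0.42 at 8, 12 and 24 h on slide 1, and 0.58, 0.54, 1.11 and 0.17 at 30 min and 2, 4 and 16 h on slide 2. The 24 h value was not well above background. It was the lowest changed EIF gene at 8 h (-0.85), 12 h (-0.71) and 24 h (a bound of -0.97, at least 1.96-fold lower), and was 2.03-fold lower at 16 h. Every time point lay below CTR, 4 h by -0.08 only, but with median scaling 30 min, 2 and 4 h lay above it (0.34, 0.05 and 1.00).

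EIF2B2, the beta subunit (chr10:88735075-88735134, plus strand), had a level of 2.84 in CTR and 3.62, 3.39 and 3.11 at 8, 12 and 24 h on slide 1, and 2.44, 2.79, 3.22 and 3.13 at 30 min and 2, 4 and 16 h on slide 2. Its changes of 0.79 at 8 h and 0.55 at 12 h were the highest among the EIF genes at those times, short of 2-fold. The probe lay near the dark region, with a local CTR reading of -0.47, and the other probe of the gene gave -0.34 at 8 h and 0.26 at 12 h. EIF2B5, the catalytic epsilon subunit, lay above CTR at all 7 time points by 0.21 to 0.67.

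EIF2B3, the gamma subunit, had levels of 1.20 in CTR and 0.50, 0.89 and 1.08 at 8, 12 and 24 h on slide 1, and 1.42, 1.35, 1.64 and 0.01 at 30 min and 2, 4 and 16 h on slide 2, and was 2.28-fold lower at 16 h. Its probe lay in a dark patch of the 16 h array, where bright neighbours read -1.18 below their own levels on the other arrays, and the part of the patch in that call was not tested. EIF2B4, the delta subunit, ranged from -0.54 at 8 h to 0.64 at 16 h.

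The kinases that phosphorylate eIF2 gave no 2-fold call. EIF2AK2 (PKR, which binds double-stranded RNA) had levels of -0.02 in CTR, -0.33 and -0.29 at 8 and 12 h, and 0.83, 0.84 and -0.20 on the arrays of 30 min, 2 and 4 h. At 16 and 24 h it did not stand well above background. It was thus highest on the 30 min and 2 h arrays, by 0.84 and 0.85 over CTR. On these arrays the summed level of the leukocyte markers was also highest (6.57 and 5.69), although CD79A lay below its CTR level. EIF2AK3 (PERK, which senses unfolded protein in the endoplasmic reticulum) ranged from -0.36 to 0.47, and EIF2AK1 (HRI, regulated by heme) from -0.66 to 0.35.

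**Figure D2:**
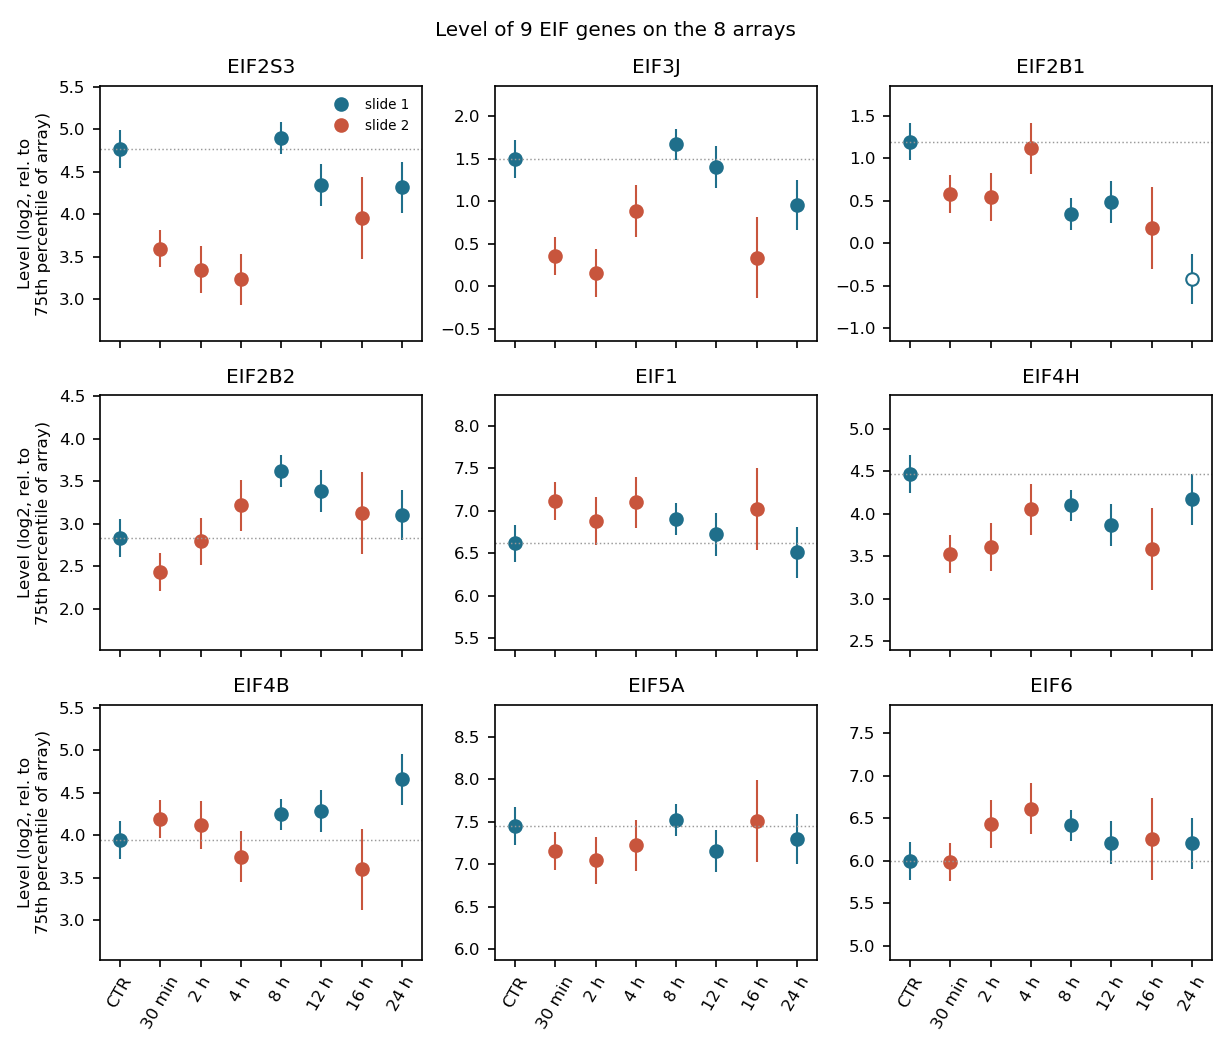
Level (log2 relative to the 75th percentile of the array, vertical axis, each panel spanning 3 units) of 9 EIF genes on the 8 arrays, with the SD between spots of a probe on that array as bars (that of CTR for 30 min) and an open point where the probe was not well above background. The 4 slide 2 arrays (red) lie below all slide 1 arrays (blue) for EIF2S3 and EIF3J, and the 24 h array is lowest for EIF2B1 at -0.42.

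eIF3, the largest initiation factor, is a scaffold of many subunits that keeps the ribosomal subunits apart and links them to the eIF4 factors. Its 13 genes split at the early times, with 4 above and 9 below CTR at 30 min, and 5 above and 8 below at 2 h. The median change of the 13 was -0.23, -0.32, -0.26 and -0.24 on the slide 2 arrays (30 min, 2, 4 and 16 h), and 0.19, -0.09 and -0.0011 on the slide 1 arrays (8, 12 and 24 h). Only EIF3J and EIF3A were called, both lower.

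EIF3J encodes the loosely bound subunit at the mRNA entry channel. Its used probe (chr10:105984189-105984248, plus strand) gave levels of 1.50 in CTR and 1.67, 1.41 and 0.96 at 8, 12 and 24 h on slide 1, and 0.36, 0.16, 0.89 and 0.34 at 30 min and 2, 4 and 16 h on slide 2. The gene was lower than CTR by 2.20-fold, 2.53-fold and 2.23-fold at 30 min, 2 and 16 h, with a change of -0.61 at 4 h and one between -0.54 and 0.17 on slide 1. As for EIF2S3, all slide 2 arrays lay below all slide 1 arrays.

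The other probe of EIF3J, whose sequence is given above, gave levels of 0.39 in CTR, 0.13 and -0.59 at 8 and 12 h, and -1.94 at 2 h, a change of -2.33. It was not well above background at 4 h, where the bound was -2.12, or at 30 min, 16 h and 24 h. Both probes thus lay below CTR at each slide 2 time point. Against the median change of all bright probes, the used probe gave -0.82, -0.53 and -1.10 at 30 min, 4 and 16 h, and it was just past 2-fold at 2 h. With median scaling the 4 h value turned to 0.47, and those at 30 min and 2 h were -0.18 and -0.64.

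EIF3A, the largest subunit, had levels of 3.09 in CTR and 3.70, 3.09 and 2.50 at 8, 12 and 24 h on slide 1, and 2.65, 2.42, 2.83 and 2.09 at 30 min and 2, 4 and 16 h on slide 2. It was 2.00-fold lower at 16 h, at the threshold, where of its other probes one had a bound of -1.48, one gave 0.13 and one, not well above background in CTR, a bound of 0.90. At 8 h its 3 probes measured on both arrays gave 0.60, 0.70 and 0.99.

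Among the other subunits, EIF3F (-0.88), EIF3M (-0.91), EIF3E (-0.64) and EIF3H (-0.63) were next to EIF3J and EIF3A (-0.67) the lowest at 2 h, none of them 2-fold by the probe used. At 2 h the other probes of EIF3F (-0.40), EIF3E (-0.99) and EIF3H (-1.94) also lay below CTR. That of EIF3M lay above it, by 0.11 at 2 h and 0.29 at 30 min. Bright neighbours of the used probes of EIF3F and EIF3H read 0.30 and 0.31 on the CTR array. EIF3G, which binds mRNA, and EIF3K were the highest at 2 h, with 0.52 and 0.46. The level of EIF3K was 5.67 in CTR and 5.86, 5.58 and 5.81 at 8, 12 and 24 h on slide 1, and 6.13, 6.14, 6.44 and 6.56 at 30 min and 2, 4 and 16 h on slide 2, with all slide 2 arrays above all slide 1 arrays. Its other probe gave 0.41, 0.41, 0.52 and 0.76 on the same slide 2 arrays.

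EIF3H, a subunit at the periphery of the complex, showed how far probes could differ in size. Its used probe gave -0.36, -0.63, -0.69 and -0.34 on the 4 arrays of slide 2. The probe printed above gave -1.94 at 2 h and -1.75 at 4 h, with bounds of -1.37 at 30 min and -1.68 at 16 h. Both lay below CTR at all 7 time points, and at 8 h they gave -0.19 and -0.22. EIF3CL is named for a close relative of EIF3C, and its probes may not separate them. Its changes lay between 0.18 and 0.58.

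**Figure D3:**
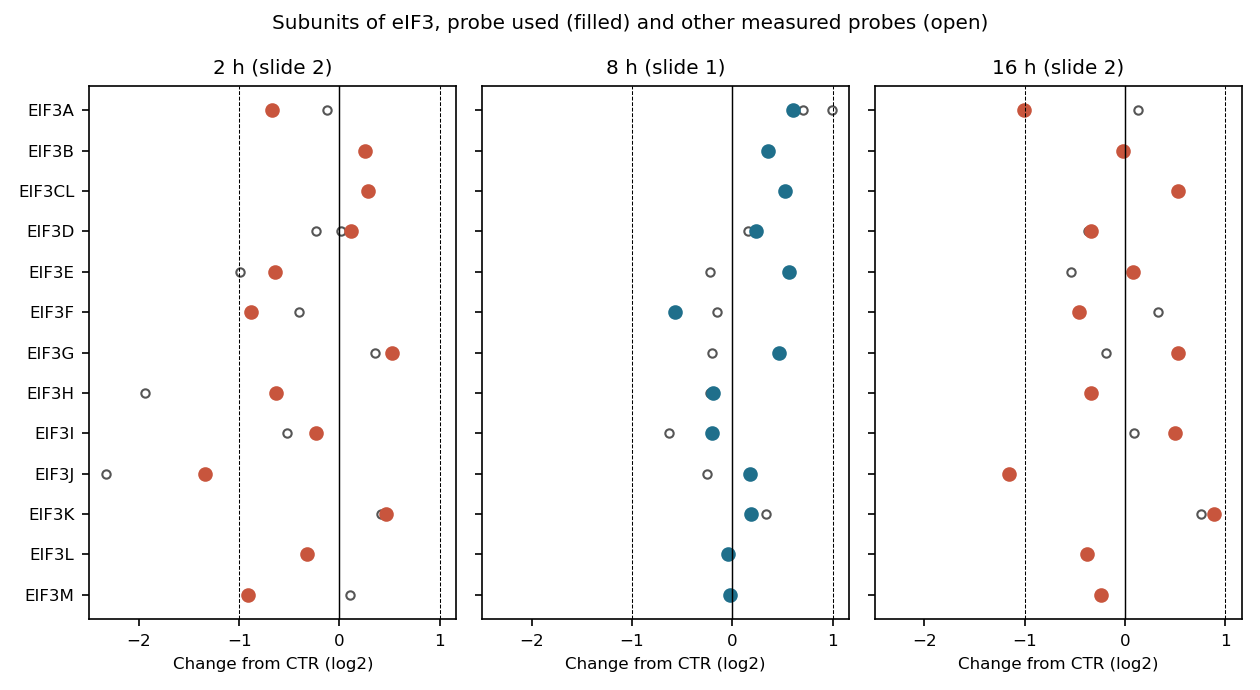
Change from CTR (log2, horizontal axis) of the 13 eIF3 subunit genes at 2 h, 8 h and 16 h, with the probe used filled, other probes measured on both arrays open, and dashed lines at 2-fold. At 2 h the other probes of EIF3J and EIF3H lie at -2.33 and -1.94, farther from CTR than the probes used, and at 8 h no used probe lies past 2-fold.

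The eIF4 factors recognise the cap and unwind the mRNA. EIF4E, the cap-binding protein, had changes of -0.79, -0.84, -0.46 and -0.63 on the slide 2 arrays (30 min, 2, 4 and 16 h) by its used probe, and of 0.11, -0.43 and -0.13 on those of slide 1 (8, 12 and 24 h). Its level was 2.84 in CTR and 2.95, 2.41 and 2.71 at 8, 12 and 24 h on slide 1, and 2.04, 1.99, 2.37 and 2.21 at 30 min and 2, 4 and 16 h on slide 2, with slide 2 below slide 1 on all arrays. Its other probes reached -1.17 and -1.89 at 4 h. The 3 probes overlap, between chr6:27514835-27514894 and chr6:27514856-27514915, so they are not independent.

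EIF4E2, a cap-binding relative that represses translation, had changes of -0.81 at 30 min, -0.53 at 2 h and -0.59 at 16 h. EIF4EBP1, which sequesters eIF4E, went the other way on slide 2. Its level was 2.51 in CTR and 2.52, 2.58 and 2.57 at 8, 12 and 24 h on slide 1, and 3.08, 3.06, 3.49 and 3.71 at 30 min and 2, 4 and 16 h on slide 2, so that all slide 2 arrays lay above all slide 1 arrays.

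EIF4EBP1 was 2.30-fold higher at 16 h, and at 4 h it was 1.97-fold above CTR, just under the threshold. The probe used lies at chr27:35494017-35494076 and the other at chr27:35493816-35493875. Both gave similar changes at 30 min (0.56 and 0.42), 2 h (0.55 and 0.34) and 4 h (0.98 and 1.01), but 1.20 and -0.48 at 16 h. The latter probe lay in a dark patch of the 16 h array with a local reading of -1.45, and its part in the difference was not tested. On slide 1 the other probe lay below CTR, by -0.63, -0.68 and -0.38 in order of time, where the used probe gave 0.01, 0.07 and 0.06.

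EIF4A2, a helicase of the eIF4F complex, was called at 16 h, 2.19-fold higher. The level of its used probe was 4.05 in CTR and 3.91, 3.85 and 4.20 at 8, 12 and 24 h on slide 1, and 3.87, 4.07, 4.44 and 5.18 at 30 min and 2, 4 and 16 h on slide 2, so 16 h stood apart from the rest. A probe that overlaps it (chr1:82284867-82284926, used probe chr1:82284823-82284882) gave 0.84 at 16 h, the probe printed above 0.30, and a further probe 0.38. The probe at chr1:82284476-82284535 gave -0.85, and it too lay in a dark patch of that array, with a local reading of -1.17. At the other 6 time points no probe of EIF4A2 differed by 2-fold. EIF4A1, the more general helicase, ranged from -0.69 at 12 h to 0.17 at 4 h, and EIF4A3, a core protein of the exon junction complex, lay below CTR at all 7 time points by -0.23 to -0.49. Bright neighbours of the EIF4A3 probe read 0.30 on the CTR array, and the part of this in its changes was not tested.

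EIF4H, which stimulates the helicase, had the largest median absolute change of the eIF4 genes by the probe used, 0.60. Its level (chr5:4346047-4346106, plus strand) was 4.46 in CTR and 4.10, 3.87 and 4.17 at 8, 12 and 24 h on slide 1, and 3.52, 3.61, 4.05 and 3.58 at 30 min and 2, 4 and 16 h on slide 2. All 7 time points lay below CTR, by -0.29 to -0.94, although 30 min and 4 h lay above it with median scaling (0.01 and 0.67). A second probe gave -0.61 at 2 h and -0.54 at 16 h, and values from 0.09 to 0.18 on slide 1. At 16 h another probe gave 0.16, and a further one, as a bound, was at least 2-fold higher than CTR. The probes of EIF4H other than the one used had no position on the build and were designed to other sequence entries. Whether all of them read the same transcript was not tested.

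EIF4B, the partner that helps the helicase (chr5:29883240-29883299, minus strand), had a level of 3.95 in CTR and 4.24, 4.29 and 4.66 at 8, 12 and 24 h on slide 1, and 4.19, 4.12, 3.74 and 3.60 at 30 min and 2, 4 and 16 h on slide 2. Its change of 0.71 at 24 h was the highest of the EIF genes at that time, and its other probes gave 0.49 and 0.31 there. At 4 h all 3 probes lay below CTR, by -0.15 to -0.75, although the used probe lay above it with median scaling (0.88).

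EIF4G2 (DAP5), a scaffold without the site for eIF4E that serves cap-independent initiation, was the EIF gene with most probes. All 7 lay below CTR at 30 min, by -0.28 to -1.67 with 4 past 2-fold, and at 16 h, by -0.20 to -1.27. The used probe (chr15:40896035-40896094, plus strand) had a level of 7.14 in CTR and 6.76, 6.60 and 6.94 at 8, 12 and 24 h on slide 1, and 6.38, 6.28, 6.61 and 6.83 at 30 min and 2, 4 and 16 h on slide 2, and its largest change was -0.85 at 2 h. Bright neighbours of the used probe read 0.26 on the CTR array. The first EIF4G2 probe printed above gave -1.36, -1.05 and -0.94 at 30 min, 2 and 4 h, and the second -1.24, -0.73 and -0.75.

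By the median of its 7 probes, the change of EIF4G2 was -1.10, -0.85, -0.61, -0.61, -0.27, -0.43 and -0.19 in order of time, lowest at 30 min and nearest to CTR at 24 h. EIF4G1, the main scaffold, gave 0.66 at 4 h and -0.71 at 16 h, and its second probe 0.84 at both times. EIF4G3 ranged from -0.59 at 12 h to 0.26 at 24 h by its used probe. Its other probe, not well above background in CTR, had bounds of 1.18 at 30 min and 1.24 at 2 h.

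**Figure D4:**
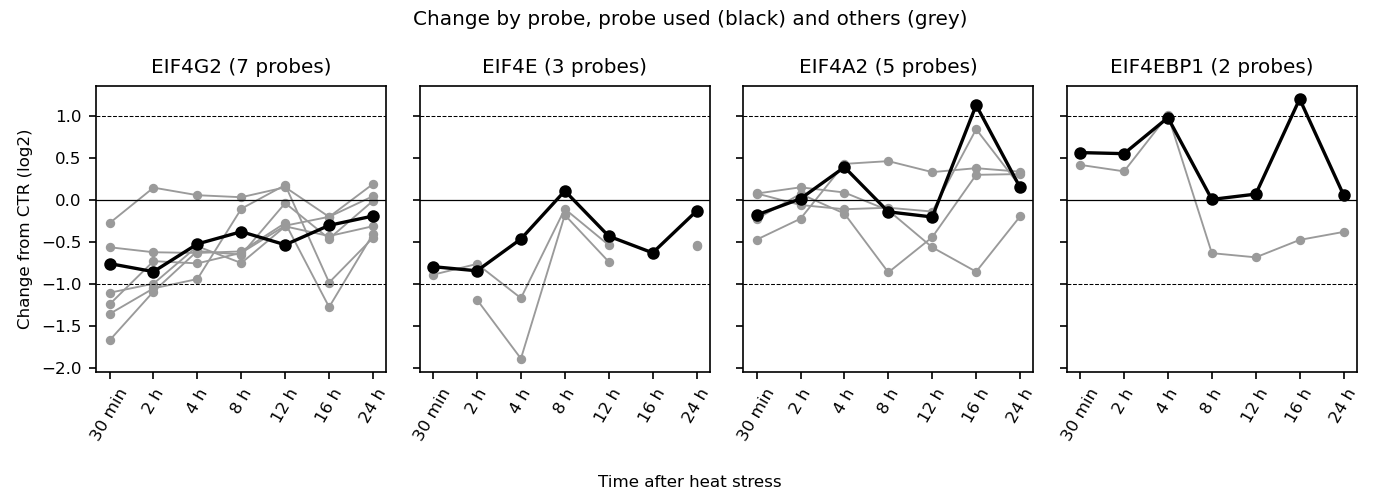
Change from CTR (log2, vertical axis) by time post heat stress for each probe of EIF4G2, EIF4E, EIF4A2 and EIF4EBP1, with the probe used in black, others in grey, points only where both arrays were well above background, and dashed lines at 2-fold. All 7 probes of EIF4G2 lie below 0 at 30 min, and at 16 h the probes of EIF4A2 (1.13 to -0.85) and EIF4EBP1 (1.20 and -0.48) part.

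The late factors act when the subunits join. EIF5, which triggers GTP hydrolysis by eIF2, had levels of 5.10 in CTR and 5.83, 5.08 and 4.55 at 8, 12 and 24 h on slide 1, and 5.66, 5.32, 5.09 and 5.18 at 30 min and 2, 4 and 16 h on slide 2. Its change was 0.73 at 8 h and -0.55 at 24 h, and its other probes measured at 24 h gave -0.77 and -0.67.

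EIF5A, the hypusine-bearing factor that frees stalled ribosomes (chr19:27397839-27397898, plus strand), had a level of 7.45 in CTR and 7.53, 7.16 and 7.30 at 8, 12 and 24 h on slide 1, and 7.16, 7.05, 7.23 and 7.51 at 30 min and 2, 4 and 16 h on slide 2. Its used probe stayed between -0.40 and 0.08, and only 2 h exceeded the spot error, which turned to 0.30 with median scaling, as 30 min and 4 h did (0.67 and 0.86). The other probes lay below CTR at all 7 time points, as low as -1.04 at 30 min for the weaker and -0.89 at 4 h for the other.

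EIF6, which keeps the large ribosomal subunit from joining too early (chr13:65130229-65130288, minus strand), had a level of 5.99 in CTR and 6.41, 6.21 and 6.21 at 8, 12 and 24 h on slide 1, and 5.98, 6.43, 6.61 and 6.26 at 30 min and 2, 4 and 16 h on slide 2. The change was 0.62 at 4 h and between -0.01 and 0.44 otherwise, with a local CTR reading of -0.33 near the dark region. Its other probe lay below CTR at 6 of 7 time points, down to -1.14 at 16 h. The 3 names EIF2C2, EIF2C3 and EIF2C4 are older names of Argonaute genes, which act in RNA silencing and not in initiation, and none was well above background in CTR. EIF2C2 was at least 1.68-fold higher than CTR at 30 min and at least 1.44-fold higher at 2 h.

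**Figure D5:**
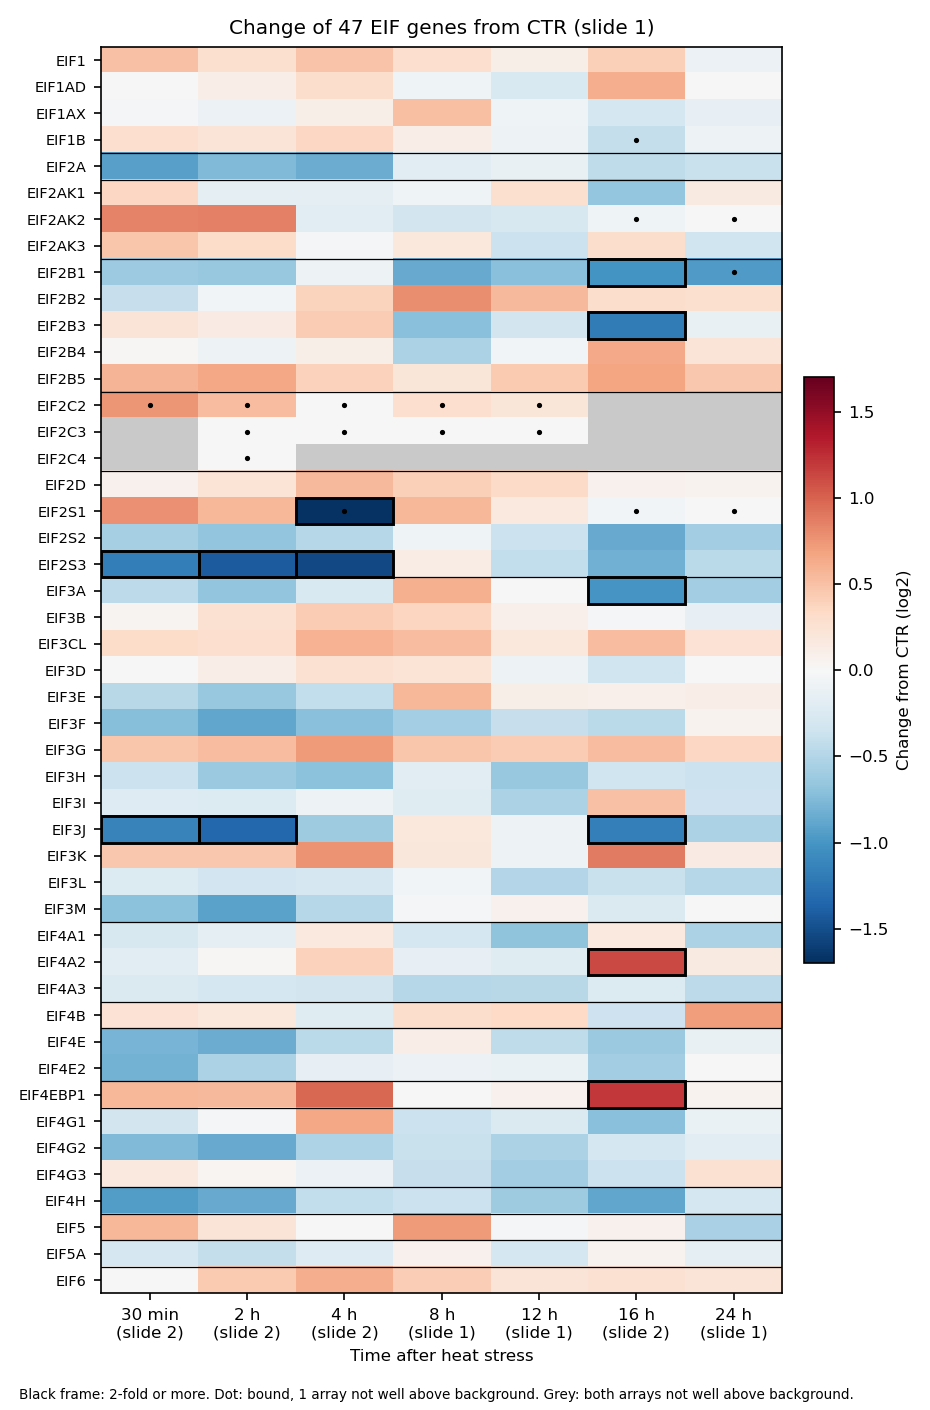
Change from CTR (log2, colour from -1.7 in blue to 1.7 in red) of the 47 EIF genes (rows, ordered by name) at 7 times post heat stress (columns, with the slide), with black frames at 2-fold or more, dots for bounds and grey where both arrays were not well above background. Frames stand at EIF2S3 and EIF3J for 3 time points each, and none at 8 h, 12 h or 24 h.

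For some of the 40 bright EIF genes, levels on the slides did not overlap by the probe used. Slide 2 lay wholly below slide 1 for 6 (EIF2A, EIF2S3, EIF3J, EIF3M, EIF4E and EIF4E2), beside 13% of all bright genes, and wholly above for 4 (EIF1AD, EIF3G, EIF3K and EIF4EBP1), beside 11.1%. Both counts were near these shares, and slide and heat cannot be told apart here. The gap was within the spot error for EIF1AD (2.724 at 30 min, 2.719 in CTR), and also for EIF3J and EIF4E. Other probes of EIF1AD, EIF3G, EIF3M and EIF4EBP1 overlapped between the slides, and those of EIF2A, EIF3J and EIF3K did not. Some of these readings were not well above background. Within slide 2, with 4 h in the place of CTR, EIF2AK2 and EIF2S1 were 2-fold higher at 30 min and at 2 h (2 of 46 and 2 of 47, all genes 9.01% and 9.64%), and none was lower (4.49% and 6.77%). The values were 1.03 at 30 min and 1.04 at 2 h for EIF2AK2, and bounds of 2.46 and 2.25 for EIF2S1, which was not well above background at 4 h.

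At 16 h against 4 h, EIF2B3 and EIF4G1 were lower, by -1.62 and -1.37 (2 of 45, all genes 3.95%), and none was higher (8.59%). The EIF2B3 probe lay in the dark patch of the 16 h array, and the second probe of EIF4G1 had a level of 1.25 on both arrays. EIF2S3 differed by 0.36, 0.11 and 0.72 from 4 h at 30 min, 2 h and 16 h, and EIF3J by -0.53, -0.73 and -0.55. The 2 genes called most often against CTR were thus not called within slide 2. That slide held no unstressed array, so their difference from CTR cannot be read there.

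Where a gene had several probes, their agreement gives a further measure of error. Of 24 EIF genes with at least 2 probes well above background on 7 or more arrays, all probes lay below CTR for 14, 11, 9, 5, 11, 8 and 9 in order of time. All probes lay above CTR for 4, 6, 6, 4, 1, 3 and 4 of them. Of 1649 genes chosen in the same way, all probes lay below CTR for 48.5%, 50.6%, 35.3%, 44%, 54.8%, 34.6% and 44.5%, and above for 17%, 15.8%, 24.7%, 15.9%, 9.4%, 24.1% and 14.6%. The SD of the change between probes of an EIF gene was 0.42, 0.42, 0.39, 0.39, 0.36, 0.58 and 0.31 in order of time, beside 0.57, 0.60, 0.56, 0.37, 0.36, 0.64 and 0.35 over all genes with several probes. A 2-fold change of an EIF gene was therefore 2 or more such SDs at every time point other than 16 h. Such an SD compares probes on the same pair of arrays. It does not cover differences between arrays, slides or cultures, or the choice of scaling.

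Genes that work beside the initiation factors were taken from a list of 48, of which 40 had a detected probe. At 30 min 5 of 35 were 2-fold higher and 5 lower, and at 2 h 4 of 39 were higher and 5 lower. Higher and lower genes then numbered 1 and 2 (of 37, 4 h), 2 and 0 (of 34, 8 h), 1 and 3 (of 36, 12 h), 2 and 3 (of 33, 16 h) and 0 and 1 (of 33, 24 h), beside the shares of all genes given above.

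The list of targets of the eIF2 pathway and its phosphatase held the highest change, that of ATF3, and also genes that fell. ATF3, a transcription factor induced downstream of phosphorylated eIF2, had a level of 1.34 in CTR and 3.14, 2.71 and 2.16 at 8, 12 and 24 h on slide 1, and 4.70, 4.43, 2.20 and 2.19 at 30 min and 2, 4 and 16 h on slide 2, so that CTR was lowest and 30 min and 2 h highest. It rose 10.3-fold at 30 min and 8.54-fold at 2 h, then by 1.81 and 1.37 at 8 and 12 h on the log2 scale, with changes between 0.82 and 0.87 on the other 3 arrays. DDIT3 (CHOP), another such target, was not well above background in CTR and had bounds of 1.59 at 30 min and 1.29 at 2 h. SESN2, also a target, rose by 1.03, 1.23 and 1.08 at 30 min, 2 and 8 h. ASNS, a further target, lay at -0.46 and -0.44 at 30 min and 2 h and had a bound of -0.88 at 24 h. Of the catalytic subunits of the phosphatase PP1, PPP1CA fell by 1.05 at 30 min, PPP1CB by 1.13 at 30 min and 1.53 at 16 h, and PPP1CC by 1.18 at 16 h.

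ATF4, whose mRNA is translated when eIF2 is phosphorylated, had changes of -0.08 at 30 min and 2 h, -1.28 at 12 h and -1.79 at 24 h. IMPACT, which restrains the eIF2 kinase GCN2, fell by 1.32 at 2 h and by 1.21 at 4 h. The elongation factors EEF1A1, EEF1B2, EEF1D, EEF1G and EEF2 had no 2-fold change, while EEF2K, the kinase that slows elongation, rose by 1.02 at 30 min, by 1.75 at both 2 and 4 h and by 1.37 at 16 h. The CTR level of EEF2K, -0.10, was close to the limit of that array, -0.20. At 24 h EEF2K was not well above background. RPS6, a ribosomal protein phosphorylated by growth signals, fell by 1.29, 1.05 and 1.02 at 30 min, 2 and 12 h. DHX29, a helicase that assists scanning, fell by 1.81 at 2 h and was not well above background at 30 min and 16 h, with bounds of -1.10 and -1.41.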

How the data were processed

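The authors hybridised 1 array per condition, 8 in all. Spot intensity as deposited came from Feature Extraction 9.5.3.1, and per the file headers it had trends removed but no scaling between arrays. The authors also deposited log2 values, scaled by the 75th percentile and centred by probe. These gave the 30 min level, put back on the scale of the other 7 arrays by the median offset per probe. For the rest, log2 of the processed intensity minus the 75th percentile of the array was used, as the mean over spots of a probe without those marked as outliers. That percentile lay between 65.0 at 30 min and 426 at 12 h, with 20.9% to 40.2% of probes well above background. The number of arrays limits the precision. Probes at rows 216 to 330 and columns 30 to 59 were left out.

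A gene took the probe most often well above background, then the brightest. Where 1 of both arrays was not well above background, that array was set to the higher of its value and its lowest value well above background, which gave a bound; a bound that reached no difference counted as 0. The highest such limit of the other arrays decided detection at 30 min. Local readings are medians over bright probes within 10 spots, and a patch was dark where this was -1 or less. No test was made. Changes were tested on simulated data for 8 h against CTR with 43653 probes, where 98% of 200 changed probes and 0% of unchanged probes were called. These shares hold for the simulated probes and give no rate of false calls for the arrays, which had no replicate.

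Values on every array are given for genes called the same way at 2 or more time points, for the largest median absolute change in each group of EIF1 to EIF6, and for the largest rise and fall at 8 h, 12 h and 24 h (EIF2S3, EIF3J, EIF1, EIF4H, EIF5A, EIF6, EIF2B1, EIF2B2 and EIF4B). The other genes were named after their values were seen. Members and lists were chosen with earlier results of these data known. Of the 55 names, 48 were found as RefSeq symbols of the buffalo assembly, 43 of them members. Alternatives were normexp correction (limma 3.58.1) with an offset of 50, quantile normalization, scaling to the median or to bright probes, other filters, the mean over probes, the deposited log2 values, the 30 min scanner intensities, leaving out dark patches, keeping outlier-marked spots, a 3-fold threshold and, chosen after seeing the data, changes relative to the median of bright probes. Python 3.11.15, pandas 2.3.3 and numpy 2.4.6 were used.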

Additional observations from a re-analysis of the deposited data

How the results depend on the processing

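Each condition had 1 array, and no alternative replaces a second one. Normexp and quantile settings gave no 30 min value. No paired analysis was possible because the conditions share a replicate number of 1 only.

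With normexp correction, 5 EIF genes were higher and 0 lower at 2 h (median 0.53), 8 and 0 at 4 h (median 0.49), and 1 was lower at 16 h. EIF5A at 2 h was then 0.31, EIF4H at 4 h 0.22 and EIF2S3 at 12 h 0.041. Quantile normalization left 1 gene higher at 16 h, and EIF5A at 2 h was 0.28. Scaling to the median of each array gave 18 genes higher and 0 lower at 30 min (median 0.92), 9 and 0 at 2 h (median 0.61), 21 and 0 at 4 h (median 0.99), and 3 lower at 24 h (median -0.52). The changes beyond the spot error that turned under it were EIF4H 0.013, EIF2B2 0.56 and EIF2B1 0.34 at 30 min, EIF5A 0.30 and EIF2B1 0.048 at 2 h, and EIF3J 0.47 and EIF4H 0.67 at 4 h.

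Among bright genes alone, 1 was lower at 4 h. Without filter or bound, 1 was higher at 30 min, 1 higher and 9 lower at 2 h, 11 lower at 4 h and 1 lower at 24 h. The mean over the probes of a gene gave 4 lower at 2 h, 5 lower at 4 h and 0 higher at 16 h, with EIF6 at -0.0058 at 2 h and -0.10 at 8 h, EIF4B at -0.043 at 8 h and EIF4H at 0.021 at 16 h. The 30 min scanner intensities gave 20 higher and 16 lower, with EIF2S3 at 1.27 and EIF2B1 at 1.90. At 3-fold, 0 genes were lower at 30 min and 2 h, 1 at 4 h, and 0 were higher and 0 lower at 16 h. Relative to the median change of all bright probes, 3 genes were higher and 0 lower at 30 min (median 0.28), 1 was higher at 2 h, 1 higher at 4 h and 2 lower at 16 h. The cause was not tested for any of these. Of 166 counts under the alternatives, 34 moved by more than 1.5 times, as did 7 of 76 medians by more than the spot error. Of 675 changes of named genes, 17 turned in sign from a value beyond the spot error, all given above, 42 turned from a value within it, 10 of them with median scaling, and 89 moved by more than the spot error.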
